A study of Mus musculus with 6 samples.

Results

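In mouse bone marrow-derived macrophages (BMDMs) that carried C/EBPα and IRF8 on the same stretch of chromatin, 370 regions had a peak of each factor in control cells and a peak of neither after 1 h of IL-4. They were chosen by the presence or absence of peaks in 4 deposited lists. Peaks of all 6 lists of the series were joined where they overlapped by at least 1 bp, which gave 60856 regions. Of these, 14176 held both a C/EBPα and an IRF8 control peak, and 370 of the 14176, or 2.61% (Wilson 95% interval 2.36% to 2.89%), were on neither IL-4 list of those factors. A region is called lost, kept or gained below only by whether a peak was listed, and a peak that is no longer listed may still have had signal under the caller's threshold.

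The cells came from wild-type mice of 8 to 12 weeks and were grown for 6 days in L929 supernatant, a source of macrophage colony-stimulating factor. Control cells received no IL-4, and treated cells received 20 ng/ml IL-4 for 1 h. Both were crosslinked with disuccinimidyl glutarate and formaldehyde, and immunoprecipitation used antibodies to JUNB, IRF8 and C/EBPα, one in each sample. Each antibody and condition had 1 sample, so no value below has a replicate, no test was made between conditions, and intervals cover counting error over regions only. In control, 7 of 8 macrophage marker genes were nearest to at least 1 peak of each factor, Spi1 being the exception, but so were 5 of 12 marker genes of other cell types, so peak lists alone do not identify the cells.

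C/EBPα is a leucine zipper protein that sets up the myeloid program, and IRF8 is an interferon regulatory factor that often binds DNA together with the ETS factor PU.1. JUNB is a subunit of AP-1. Such factors occupy macrophage enhancers in resting cells, and IL-4 acts through its receptor on STAT6, which is phosphorylated, enters the nucleus and binds palindromic sites.

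Sequences are shown first for regions that come first by the lower of their 2 control score percentiles (called score order below), because both of their lost peaks were among the least close to the threshold, followed by regions with a lost JUNB peak. Each stretch covers 150 bases around the midpoint of the C/EBPα and IRF8 peak centres, on the plus strand of GRCm38, the assembly named mm10. Capitals mark matches, on either strand, to the letters of 7 motifs. These were C/EBP (TTGCNNAA), tandem IRF (GAAANNGAA), ETS-IRF composite (GGAANNGAA), PU.1 (AGGAAGT), AP-1 (TGACTCA or TGAGTCA), RUNX (TGTGGTT) and a STAT6-type palindrome (TTC, 4 bases of any kind, then GAA). The PU.1 and ETS-IRF letters share GGAA and can overlap. Regions are named by the nearest gene.
Pik3r1 (chr13:101914251-101914400): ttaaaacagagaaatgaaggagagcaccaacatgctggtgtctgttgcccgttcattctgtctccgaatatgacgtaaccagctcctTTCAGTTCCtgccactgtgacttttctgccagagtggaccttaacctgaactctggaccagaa
Gab3 (chrX:75034227-75034376): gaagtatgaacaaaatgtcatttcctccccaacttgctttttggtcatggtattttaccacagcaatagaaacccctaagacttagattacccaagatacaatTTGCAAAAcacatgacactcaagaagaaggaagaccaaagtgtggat
Fat3 (chr9:16168099-16168248): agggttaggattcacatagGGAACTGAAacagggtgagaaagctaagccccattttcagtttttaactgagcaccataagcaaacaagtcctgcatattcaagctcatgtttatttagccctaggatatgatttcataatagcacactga
Marcks (chr10:37361100-37361249): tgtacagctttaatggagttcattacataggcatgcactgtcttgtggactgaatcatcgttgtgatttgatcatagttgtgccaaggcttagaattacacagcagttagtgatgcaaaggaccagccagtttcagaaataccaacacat
Emp3 (chr7:45923017-45923166): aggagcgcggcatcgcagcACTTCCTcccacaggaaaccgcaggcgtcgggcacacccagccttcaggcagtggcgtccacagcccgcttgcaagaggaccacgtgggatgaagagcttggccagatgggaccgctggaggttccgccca
Myc (chr15:61998834-61998983): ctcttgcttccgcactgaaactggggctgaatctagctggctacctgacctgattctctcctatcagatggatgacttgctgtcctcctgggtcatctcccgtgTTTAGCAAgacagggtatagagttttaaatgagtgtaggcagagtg
Dip2c (chr13:9353985-9354134): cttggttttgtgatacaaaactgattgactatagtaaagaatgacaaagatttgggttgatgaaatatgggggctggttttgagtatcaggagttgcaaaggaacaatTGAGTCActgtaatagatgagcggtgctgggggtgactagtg

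The Pik3r1 and Fat3 stretches held ETS-IRF letters, from base 88 and base 20. Gab3 held C/EBP letters from base 104, as did Myc from base 105. Emp3 held PU.1 letters from base 20 and Dip2c AP-1 letters from base 109. Of the stretches printed here, which are not all of those first in score order, Marcks matched none of the 7 motifs. The same held for 27.6% of the 370 regions in windows of 200 bp.

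A further group was picked after its values were seen. The Cx3cr1 and Maf regions belong to genes with several losses, Bcl2l11 is among the few lost regions with the STAT6-type letters, and Zc3h12c had a loss and a gain at the same gene.
Cx3cr1 promoter, lost (chr9:120068247-120068396): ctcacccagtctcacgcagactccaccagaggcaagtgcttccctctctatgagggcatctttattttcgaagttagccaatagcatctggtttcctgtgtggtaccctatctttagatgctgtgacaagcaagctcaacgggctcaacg
Maf, lost (chr8:115599945-115600094): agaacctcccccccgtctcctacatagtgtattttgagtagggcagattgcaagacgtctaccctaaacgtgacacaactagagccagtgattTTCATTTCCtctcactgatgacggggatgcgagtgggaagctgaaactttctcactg
Bcl2l11, lost (chr2:128203902-128204051): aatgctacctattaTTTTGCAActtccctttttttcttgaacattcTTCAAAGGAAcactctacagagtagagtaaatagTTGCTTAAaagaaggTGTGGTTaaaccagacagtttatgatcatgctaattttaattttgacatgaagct
Zc3h12c, lost (chr9:52189609-52189758): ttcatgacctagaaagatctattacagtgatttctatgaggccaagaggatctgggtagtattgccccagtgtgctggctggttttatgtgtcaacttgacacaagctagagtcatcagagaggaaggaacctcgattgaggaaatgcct
Zc3h12c, gained (chr9:52271937-52272086): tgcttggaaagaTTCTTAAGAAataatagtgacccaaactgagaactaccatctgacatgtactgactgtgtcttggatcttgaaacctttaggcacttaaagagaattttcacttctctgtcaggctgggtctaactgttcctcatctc
Pik3r1, gained (chr13:101815834-101815983): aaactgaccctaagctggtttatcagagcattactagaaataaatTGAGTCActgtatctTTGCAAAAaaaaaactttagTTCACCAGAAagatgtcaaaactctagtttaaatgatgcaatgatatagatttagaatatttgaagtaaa

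The Maf stretch held ETS-IRF letters from base 94, while the Cx3cr1 promoter and the lost Zc3h12c region matched no motif. STAT6-type letters began at base 47 of the Bcl2l11 region, at base 13 of the gained Zc3h12c region and at base 81 of the gained Pik3r1 region.

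Regions that lost both factors had low control scores. The deposited peak score is a number from the peak caller whose scale, p or q, was not given. Since a low score lies close to the threshold, these values were used by the rule and are given as a description. The C/EBPα control score of the 370 regions ran from 2.24 to 32.26, with a median of 5.81 and quartiles of 4.55 and 7.82. That median lay at percentile 20.8 of the whole C/EBPα control list. The IRF8 control score ran from 1.89 to 25.11, with a median of 5.71 and quartiles of 4.45 and 8.04, at percentile 24.6 of its list. In the 10819 regions that kept both factors the medians were 18.2 and 19. Within the lost regions both scores were nearly unrelated across regions (Spearman's correlation 0.071, n = 370 regions that share the same 2 libraries). The correlation was also low in kept regions (0.12, n = 10819).

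**Figure D1:**
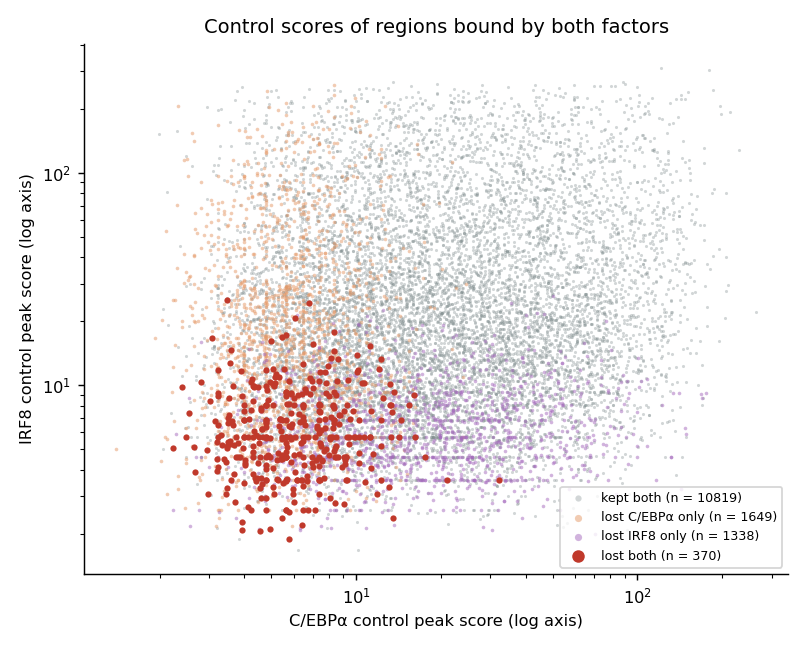
Control peak score of C/EBPα (x axis, log) and IRF8 (y axis, log) in each of the 14176 regions bound by both factors in control, coloured by which peaks were still listed after IL-4. The 370 regions that lost both (red) lie in the low corner of both axes, around medians of 5.81 and 5.71, among many grey regions that kept both.

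The share that lost both fell with the score. Each region bound by both was placed by the lower of its 2 percentiles within the C/EBPα and IRF8 control lists. In the lowest decile of that scale, 148 of 1697 regions lost both, or 8.72% (7.47% to 10.2%). From percentile 40 to 50 the share was 0.816% (14 of 1716), and from 50 to 60 it was 0.195% (3 of 1535). Above percentile 60 the count was 0 of 4146 regions, which allows a share of up to 0.0724%. In the lowest decile, 45.4% of regions kept both factors, so low scores were shared by lost and kept regions.

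**Figure D2:**
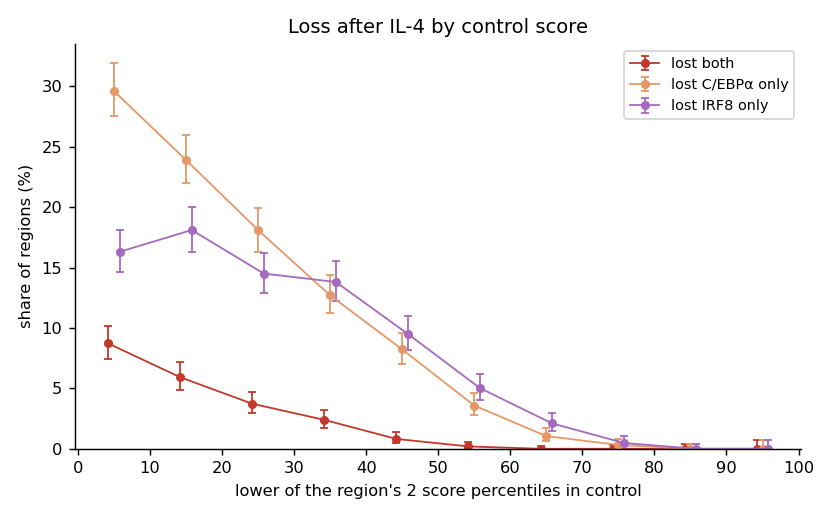
Share of regions bound by both factors in control that lost both, C/EBPα only or IRF8 only after IL-4 (y axis, %), by the lower of the region's 2 score percentiles (x axis, in steps of 10 percentiles). Points are shares and bars are Wilson 95% intervals; the loss of both falls from 8.72% to 0.

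The values nearest to the edge of the rule were as follows. A control score below 3 was found in 9 of the lost regions for C/EBPα and in 24 for IRF8. On the other side, 66 of 12157 regions that kept C/EBPα and 78 of 12468 that kept IRF8 did so with an IL-4 score below 3. When a score of at least 5 was required in every list, 154 of the 370 regions were overlapped by a region lost under that rule.

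Loss of one factor was more frequent where the other was lost, again as a description. IRF8 was lost in 18.3% of regions that lost C/EBPα (370 of 2019, 16.7% to 20.1%) and in 11% of those that kept it (1338 of 12157, 10.5% to 11.6%). To set low scores against low scores, regions were limited to those whose control scores both lay within the 10th to 90th percentile range of the lost regions, from 3.56 to 10.1 for C/EBPα and 3.46 to 10.5 for IRF8. There the shares were 34.9% (236 of 677, 31.4% to 38.5%) and 25.2% (296 of 1174, 22.8% to 27.8%). The 878 regions in that range that kept both are called the score-limited kept regions below. Their median control scores, 7.13 and 6.85, were still above those of the lost regions.

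The STAT6-type palindrome was less frequent in regions that lost both factors than in regions that kept or gained both. In windows of 200 bp around the C/EBPα peak centre it was present in 8 of 370 lost regions, or 2.16% (1.10% to 4.21%). It was present in 7.95% of regions that kept both (860 of 10818, 7.45% to 8.47%), which is 5.79 percentage points more (Newcombe 95% interval of the difference, lost minus kept, -6.97 to -3.68). Among score-limited kept regions the share was 9.23% (81 of 878, 7.48% to 11.3%), with a difference of -7.06 points (-9.41 to -4.38). The 751 regions that gained both factors carried it most often, in 38.1% (286 regions, 34.7% to 41.6%), a difference of -35.9 points (-39.6 to -31.9). Over all 60845 regions on assembled chromosomes, 7.63% held the letters around the region centre.

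Regions that lost a single factor were also low. The palindrome was present in 3.76% of the 1649 regions that lost C/EBPα only and in 2.77% of the 1338 that lost IRF8 only. Their differences from the regions that lost both, -1.60 points (-3.08 to 0.605) and -0.603 points (-2.08 to 1.58), had intervals that included 0.

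The spacing of the palindrome was then varied, a step added after the first result was seen. STAT6 is known to bind TTC and GAA half-sites spaced by 4 bases, and other STAT proteins prefer 3. With 3 bases between them the letters were in 4.05% of lost regions (15 of 370, 2.47% to 6.58%), 7.87% of kept regions (7.37% to 8.39%) and 14.2% of gained regions (11.9% to 16.9%). With 2 bases the shares were 8.38%, 8.09% and 7.06%, and with 5 bases 6.76%, 6.81% and 5.33%. At 2 and 5 bases the intervals of lost, kept and gained regions overlapped, and at 3 and at 4 bases none of the 3 did. Outside annotated repeats, a restriction also added after that result, the 4-base palindrome was in 2.88% of lost regions (8 of 278, 1.47% to 5.57%) and 8.34% of kept regions (7.78% to 8.94%).

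**Figure D3:**
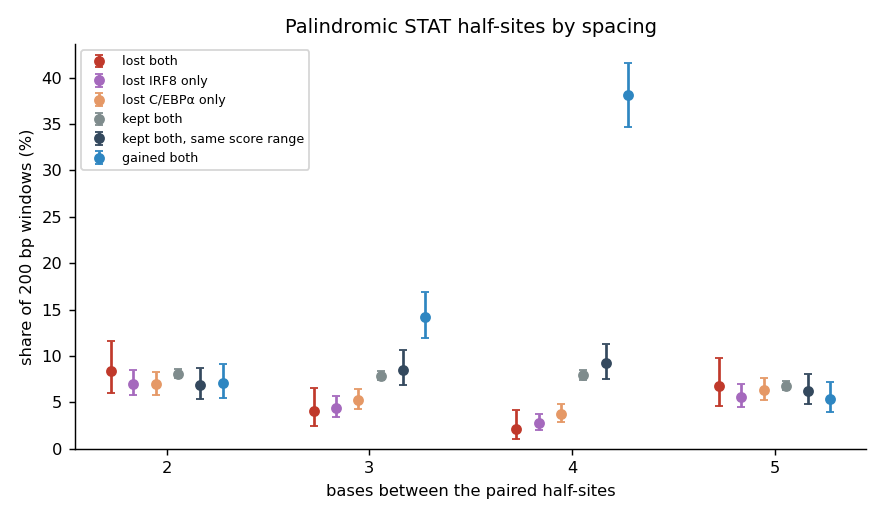
Share of 200 bp windows that hold paired STAT half-sites (y axis, %) by the number of bases between them (x axis) for the 6 classes of region. Points are shares with Wilson 95% intervals. At 4 bases the lost regions are at 2.16% and the gained regions at 38.1%. At 3 bases they are at 4.05% and 14.2%, while at 2 and 5 bases all classes lie together.

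The 8 lost regions with the palindrome were nearest to Alg10b, Gabrr2, Bcl2l11, Sdcbp, Trim52, Mctp1, Scn2b and Leo1. Bcl2l11 encodes the pro-apoptotic protein BIM, and its region had control scores of 5.47 for C/EBPα and 5.60 for IRF8. None of the 8 was among the first 12 regions in score order.

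For the motifs of the precipitated factors the difference depended on the window and on the set compared. C/EBP letters were found in 24.6% of lost regions (20.5% to 29.2%), against 29.8% of kept regions and 20.8% of score-limited kept regions. The ETS-IRF composite was in 11.1% of lost regions (8.27% to 14.7%), 16.3% of kept regions and 8.66% of score-limited kept regions. For both motifs the difference from kept regions excluded 0 (-5.17 points, -9.37 to -0.458, and -5.19 points, -8.08 to -1.52). Against score-limited kept regions it did not (3.75 points, -1.23 to 9.04, and 2.43 points, -1.05 to 6.41). Tandem IRF letters (9.73%), PU.1 (28.9%), RUNX (10%) and AP-1 (15.4%) differed from both kept sets by amounts whose intervals included 0. Around the IRF8 peak centre, tandem IRF letters were in 8.65% of lost and 14.2% of kept regions, a difference of -5.54 points (-8.09 to -2.17), while against the 10.7% of score-limited kept regions the interval, -5.37 to 1.74, included 0. In windows of 100 bp around the C/EBPα peak, C/EBP letters were in 18.9% of lost and 12.9% of score-limited kept regions, a difference of 6.05 points (1.68 to 10.8), while against the 20.9% of kept regions the interval, -5.74 to 2.38, included 0. In all 60845 regions the shares were 18.4% for C/EBP, 16.5% for ETS-IRF, 13.4% for tandem IRF, 24.3% for PU.1, 8.21% for RUNX and 10.9% for AP-1. No motif of the 7 was found in 27.6% of lost regions and in 31.4% of score-limited kept regions. Median GC content of the windows was 45.0% in lost and 45.5% in kept regions.

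JUNB was less often present where both other factors were lost than where both were kept. A JUNB control peak lay in 20 of the 370 regions, or 5.41% (3.53% to 8.20%), against 20.9% of kept regions (2263 of 10819, 20.2% to 21.7%). The difference was -15.5 points (-17.5 to -12.6), and against the 12.0% of score-limited kept regions it was -6.55 points (-9.53 to -3.13). Regions that lost C/EBPα only had a JUNB control peak in 10.1% of cases (difference -4.72 points, -7.16 to -1.61). For regions that lost IRF8 only the share was 7.47%, and the interval of the difference, -4.49 to 1.01, included 0. Gained regions had one in 2.53% of cases. JUNB was on neither list in 347 of the lost regions. A JUNB peak was counted anywhere in the joined region, and regions that lost both were the narrowest, with a median width of 277 bp. The median was 469 bp in kept, 418 bp in score-limited kept and 314 bp in gained regions. Where C/EBPα only or IRF8 only was lost it was 402 and 355 bp. JUNB shares were not compared at equal width, so the part played by width was not tested.

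Of the 20 JUNB peaks, 16 were lost too, or 80% (58.4% to 91.9%). Over all regions with a JUNB control peak in the series, 63.7% lost it. In kept regions the share was 56.1% (54.1% to 58.2%), a difference of 23.9 points (2.18 to 36.0). In score-limited kept regions it was 64.8% (68 of 105, 55.3% to 73.2%), a difference of 15.2 points whose interval, -7.96 to 30.5, included 0. The 20 JUNB control scores ran from 2.82 to 13.81, and over that JUNB score range kept regions lost 64.4% of their JUNB peaks (62.1% to 66.6%) and score-limited kept regions 73.6% (63.7% to 81.6%). Where C/EBPα only or IRF8 only was lost, 73.1% and 74.0% of JUNB control peaks were lost, and 79.7% and 77.0% over that JUNB score range. The differences of the lost regions from both single-loss classes, 6.95 points (-15.5 to 20.9) and 6.00 points (-16.9 to 21.2), had intervals that included 0. AP-1 letters were in 8 of the 20 regions with a JUNB control peak and in 14.0% of the 350 without one. The same pattern was seen in kept regions (36.0% and 8.79%) and in score-limited kept regions (47.6% and 12.0%).

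The 16 regions that lost all 3 factors included Marcks, a protein kinase C substrate that binds actin, and Myc, the proliferation-linked transcription factor. The Marcks region (chr10:37361044-37361288, intergenic, -222260 bp from the transcription start site, TSS) had control scores of 10.66 (C/EBPα), 10.27 (IRF8) and 3.74 (JUNB). The Myc region (chr15:61998764-61999081, intergenic, 13579 bp from the TSS) had 9.71, 7.58 and 3.53. The Dip2c, Fam105b, Stac, Trim52 and Atp10a regions followed in score order, with JUNB control scores of 5.73, 5.90, 2.82, 13.81 and 5.40. The Nckap1l region, at a gene for a haematopoietic subunit of the WAVE actin regulator, had 6.59. The highest JUNB score of the 20 was thus at Trim52.

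JUNB went against the other factors in 7 regions. It was kept near Anks1b (11.37 in control and 4.15 after IL-4), Pag1 (6.95 and 4.22), Lyz2 (8.32 and 3.44) and Zfand2a (9.36 and 9.54). In the first 3 of these the JUNB score was lower after IL-4. It was gained near Mir3964, Bzw1 and Wipf1, with IL-4 scores of 6.37, 3.22 and 4.07. Lyz2 encodes the macrophage lysozyme. Its region was the widest of the 370 at 1128 bp and had the highest C/EBPα score, 32.26, beside an IRF8 score of 3.57, and its C/EBPα and IRF8 peak centres lay 488 bp apart. A C/EBPα peak was listed 902 bp away after IL-4.

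**Figure D4:**
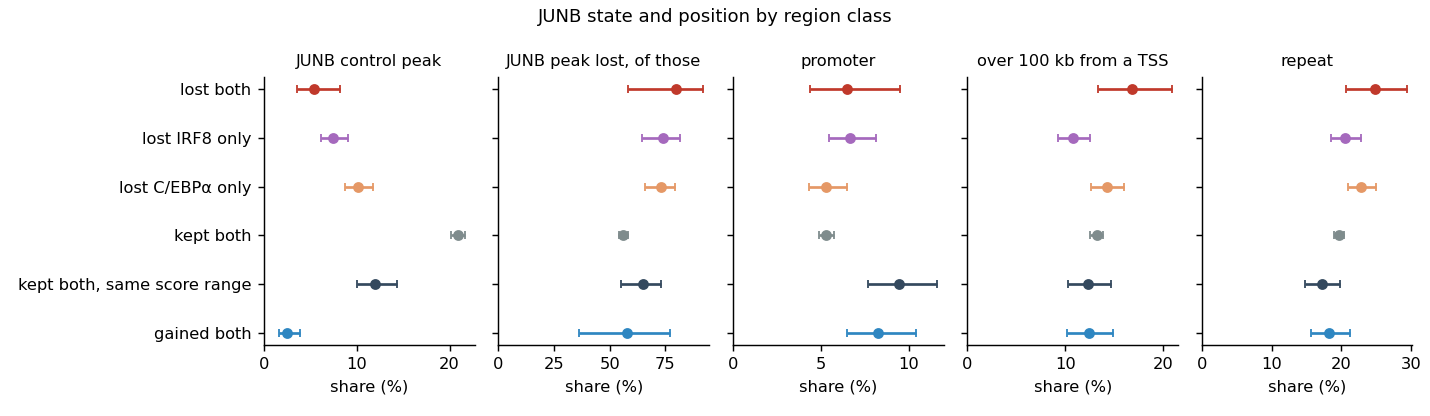
Shares (x axes, %) of 6 classes of region that had a JUNB control peak, that lost it, that were annotated as promoter, that lay over 100 kb from a TSS and that held an annotated repeat. Points carry Wilson 95% intervals; regions that lost both are at 5.41% for a JUNB control peak and at 24.9% for a repeat.

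Most lost regions lay away from promoters. By the annotation of the C/EBPα peak, 181 were intronic, 153 intergenic and 24 in promoters, and the remaining ones were 5 at transcription termination sites, 5 exonic and 2 in a 3′ UTR. The promoter share, 6.49% (4.40% to 9.47%), was above the 5.28% of kept regions (difference 1.21 points, -0.926 to 4.22). It was below the 9.45% of score-limited kept regions (-2.97 points, -5.94 to 0.498), and both intervals included 0. The median distance to the TSS was 25588 bp (quartiles 8080 and 70704), against 22140 bp in kept and 17842 bp in score-limited kept regions. Beyond 100000 bp lay 16.8% of lost and 13.2% of kept regions, a difference of 3.59 points (0.0744 to 7.78).

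Repeats were more frequent in regions that lost both factors than in kept or gained regions. The detailed annotation named a repeat in 92 of 370, or 24.9% (20.7% to 29.5%), against 19.7% of kept, 17.2% of score-limited kept and 18.2% of gained regions. The differences were 5.20 points (0.996 to 9.90), 7.67 points (2.77 to 12.9) and 6.62 points (1.56 to 11.9). Long terminal repeats (LTRs), remnants of endogenous retroviruses, made up 43 of the 92, and LINE and SINE elements 25 and 15. The LTR share, 11.6%, was 3.59 points above that of kept regions (0.663 to 7.29). Regions that lost C/EBPα only held a repeat in 22.9% of cases and those that lost IRF8 only in 20.6%, and the intervals of the differences from regions that lost both, -2.69 to 6.99 and -0.467 to 9.33, included 0. Their LTR shares were 11% (interval of the difference -2.65 to 4.58) and 7.32% (1.04 to 8.18). How reads were assigned within repeats was not tested.

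The lost regions were spread over all autosomes, from 4 on chromosome 19 to 29 on each of chromosomes 2 and 9. On the X chromosome 13 of 251 regions bound by both in control lost both, or 5.18% (3.05% to 8.66%). X-linked regions made up 3.51% of lost and 1.53% of kept regions (difference 1.99 points, 0.518 to 4.40), and against score-limited kept regions the interval of the difference, -0.00872 to 4.30, reached 0. The share was 2.79% (2.10% to 3.70%) where C/EBPα only was lost and 2.02% (1.39% to 2.92%) where IRF8 only was lost. Both intervals overlapped that of regions that lost both, 2.06% to 5.92%.

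The peaks of both factors overlapped directly in 368 of the 370 regions (99.5%), as they did in 98.1% of kept and 94.6% of score-limited kept regions. Their centres were a median of 50.5 bp apart, against 46.0 and 60 bp, and both had the same nearest gene in all 370. After IL-4, the nearest C/EBPα peak was a median of 12584 bp away and the nearest IRF8 peak 6486 bp. A peak of either factor lay within 500 bp of 48 of the 370 lost regions, a count that was not compared with other regions. The nearest other lost region was a median of 1684216 bp away, and 2 regions had one within 10000 bp. How far apart 370 regions drawn from those bound by both would lie was not tested.

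The 12 regions first in score order were nearest to Pik3r1, Gab3, Epc2, Fat3, Marcks, Emp3, Map4k3, Acsl1, Emr4, Maf, Csgalnact2 and Cx3cr1. Pik3r1 encodes a regulatory subunit of phosphoinositide 3-kinase. Its region (chr13:101914193-101914445, intergenic, in an LTR, -146129 bp from the TSS) had control scores of 12.22 for C/EBPα and 13.30 for IRF8. Gab3 encodes a docking protein, and its region in intron 1 (chrX:75034172-75034434, in a LINE element) had 12.01 and 11.90. Epc2 had the highest IRF8 score of the 12, 15.32, beside 11.22 for C/EBPα. The Fat3 region, in intron 2 of a cadherin gene, had 13.19 and 10.11. These 4 lay above the median of both whole control lists, 11.2 for C/EBPα and 10.3 for IRF8, except that the Fat3 IRF8 score lay just under it.

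Acsl1 encodes a long-chain acyl-CoA synthetase. Its region in intron 2 (chr8:46497673-46497950, 26779 bp from the TSS) had control scores of 10.14 and 11.82, and it was the gene's only region bound by both. Emr4, an adhesion receptor related to F4/80, had 10.08 and 11.55 in intron 1, with a C/EBPα peak 1132 bp away after IL-4. Emp3 had 10.52 and 10.20 at -1669 bp from the TSS. Csgalnact2, an enzyme of chondroitin sulfate synthesis, had 16.03 and 9.05.

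The first promoter region was that of Cx3cr1, the fractalkine receptor that marks resident macrophages and monocytes. It spanned chr9:120068170-120068472, with its C/EBPα peak -42 bp from the TSS, and had control scores of 12.48 for C/EBPα and 8.74 for IRF8. The other promoters, in score order, were Gm19557 (9.34 and 10.58), Serpinb10 (7.74 and 6.91), Nae1 (7.39 and 8.12), Smu1 (8.31 and 6.65), Zfp1 (6.30 and 6.70), Gm813 (6.07 and 5.71) and Arhgap10 (5.87 and 7.40). Serpinb10 is a leukocyte serine protease inhibitor and Nae1 a subunit of the NEDD8-activating enzyme. None of the 24 promoter regions held a JUNB peak, but they are too few to set apart from the 5.41% of all lost regions with a JUNB control peak.

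Losses were seldom gathered at a gene. The 370 regions were nearest to 353 genes, of which 339 had 1 lost region, 14 had 2 or more and 3 had 3. The 14 genes held 31 lost regions. Of the 353 genes, 229 also had a region that kept both, while at 109 every region bound by both in control was lost. Just 1 of the 109 had more than 1 such region, so at the others the lost region was the only one bound by both. The share lost over all genes with a single such region was not computed. These counts read against the 6791 genes with a region bound by both. How many genes would have several losses if 370 such regions were drawn from all of them was not tested.

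Map4k3, a kinase of the MAP4K family, lost 3 of 8 regions, at -95706, -40083 and 41799 bp from the TSS. Their control scores were 8.54, 3.38 and 13.63 for C/EBPα and 10.47, 4.48 and 9.27 for IRF8. The 4 regions it kept included 1 at -44616 bp with an IRF8 score of 199.45 in control and 194.41 after IL-4. Trim52 lost 3 of 6, at -94007, -52749 and 153746 bp. Mctp1, a calcium-binding membrane protein, lost 3 of 11, at 181335, 224909 and 226672 bp. In each gene the kept regions included ones with far higher scores, again as a description because low scores lie close to the threshold.

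Maf encodes a transcription factor of mature tissue macrophages. It lost 2 of 17 regions and kept 15. The lost ones lay at 106892 bp (chr8:115599911-115600140, 10.07 and 13.83) and 136272 bp (3.67 and 3.82). A kept region at 109521 bp had C/EBPα scores of 5.51 in control and 10.89 after IL-4, and IRF8 scores of 107.4 and 127.29. Maf also had 2 regions that gained both.

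Cx3cr1 had 4 regions bound by both in control and lost 2 of them, its promoter and a site at 13372 bp in intron 1 (8.07 and 2.96). Another, at 18690 bp, lost IRF8 only, with a C/EBPα score of 75.48 in control and 48.94 after IL-4. The region that stayed, at 9463 bp, scored 128.7 and 114.22 in control and 119.0 and 104.43 after IL-4, and its JUNB peak was lost. The regions of Cx3cr1 that lost both had far lower control scores than the one it kept. Low scores lie close to the threshold that the rule used, so this is a description.

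The other genes with 2 losses were Marcks (of 13), Lyzl1 (of 6), Dazl (of 4), Atp10a (of 7), Stk3 (of 2), Gja1 (of 7), Sms (of 4), Tcf4 (of 6) and Bbs10 (of 4). Stk3, which encodes a kinase of the Hippo pathway, was the only one of the 14 with no other region bound by both. Gja1 encodes connexin 43, Sms spermine synthase and Tcf4 a helix-loop-helix factor.

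**Figure D5:**
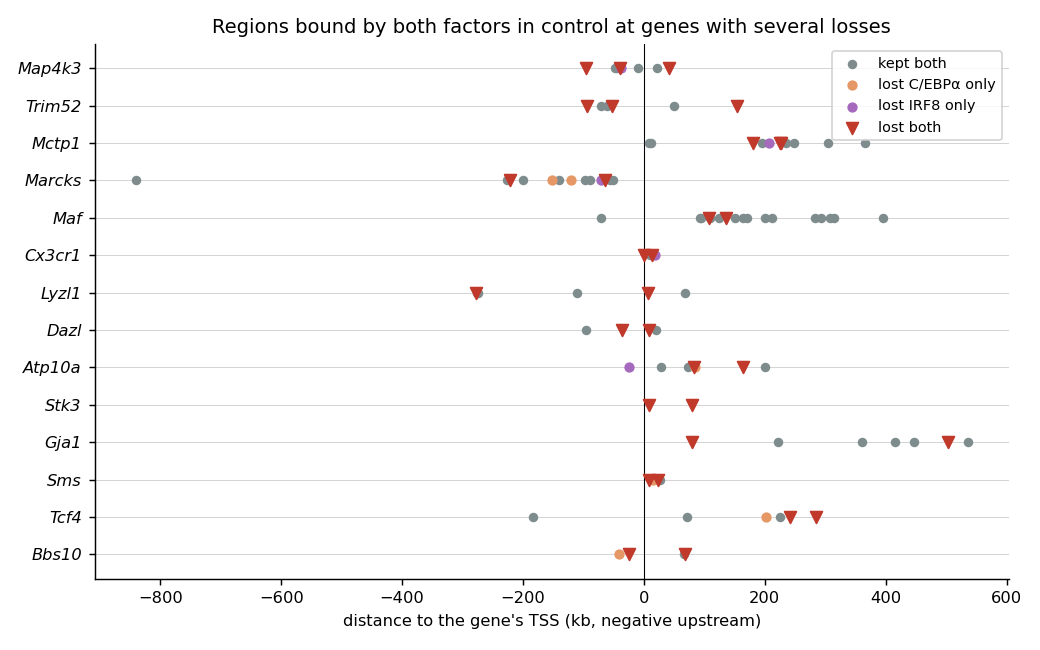
Position of every region bound by both factors in control relative to the TSS (x axis, kb, negative upstream) at the 14 genes nearest to 2 or more lost regions. Red triangles are regions that lost both and lie among circles that kept both or lost 1 factor; at Stk3 there are only 2, both lost.

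Regions at the genes of 14 lists were read against the 2.61% of all regions bound by both. Over all listed genes, 24 of 835 regions lost both, or 2.87% (1.94% to 4.24%). Macrophage transcription factors had 8 of 198 (4.04%, 2.06% to 7.77%), at Maf, Klf4, Klf6, Pparg, Irf4, Fli1 and Runx3. Alternative activation genes had 3 of 40 (7.5%, 2.58% to 19.9%), at Ccl17, Irf4 and Myc. Feedback inhibitors had 3 of 80 (3.75%), at Zc3h12c, Tnfaip3 and Nfkbiz. Every one of these intervals included the background share.

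Chemokines and their receptors had 2 of 63, both at Cx3cr1. A single region was lost in the lists of inflammasome and IL-1 family genes (1 of 38, Il1rn), Fc receptors and integrins (1 of 49, Itga4) and lipid handling (1 of 54, Acsl1). The genes that the study's text names as repressed by IL-4 had 1 of 44, at Lyz2, and those named as activated had 1 of 22, at Klf4. Pattern recognition receptors had 0 of 58 regions, which allows up to 5.17%, and lysosome and phagocytosis genes 0 of 57, which allows up to 5.26%. Cytokines had 0 of 39 (up to 7.69%) and interferon-stimulated genes 0 of 23 (up to 13.0%).

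Irf4, the interferon regulatory factor linked to alternative activation, had 1 region bound by both in control and lost it. That region was its promoter (chr13:30749208-30749414, 60 bp from the TSS), with 4.22 for C/EBPα and 10.35 for IRF8. A C/EBPα peak was listed 313 bp away after IL-4, and a region at -4598 bp gained both factors, with IL-4 scores of 12.92 and 13.26. Klf4, an IL-4-induced Krüppel-like factor, lost a region at -365284 bp (7.5 and 6.19) and kept 12 of its 15. Ccl17, a chemokine of alternatively activated cells, lost 1 of 2, in an LTR at -7885 bp (5.94 and 6.57). Pparg, the lipid-sensing nuclear receptor, lost 1 of 9 at 58830 bp (9.11 and 4.46), with IL-4 peaks of C/EBPα and IRF8 listed 292 and 132 bp away. Tnfaip3, which encodes A20, lost 1 of 8 in an LTR at -28531 bp (5.66 and 8.19).

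Among the rest of the listed genes, Zc3h12c lost a region at -21577 bp in an LTR (8.17 and 13.49). Il1rn, the IL-1 receptor antagonist, lost 1 at -18741 bp (5.87 and 6.35). Runx3 lost 1 of 5 at -90710 bp (3.98 and 8.04), Fli1 1 of 8 (4.17 and 6.97) and Klf6 1 of 7 (4.79 and 6.85). Itga4 lost 1 of 10 (4.29 and 5.71) and Nfkbiz 1 of 11 (10.71 and 3.52).

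Some genes both lost and gained regions. Of the 353 genes with a lost region, 36 also had a region that gained both factors, or 10.2% (7.46% to 13.8%), against 7.69% (7.03% to 8.41%) of the 5722 genes with a kept region. The intervals overlapped, and 229 of the 353 genes belong to both sets. The number of regions per gene was not held equal. Those 36 genes held 42 gained regions, and 14 of them (33.3%, 21.0% to 48.4%) held the STAT6-type palindrome. Their lost regions held it in 0 of 38, which allows up to 7.89%. Over all regions the shares were 38.1% of gained and 2.16% of lost ones, so the contrast at these genes is that of the whole classes. At Pik3r1 the gained region with the palindrome lay at -47696 bp and had IL-4 scores of 18.31 and 5.03. At Zc3h12c it lay at -103890 bp with IL-4 scores of 7.62 and 64.26. The sequences of both are among those given above. The other gained region of Pik3r1, at 25347 bp, did not hold the palindrome. Nor did the gained regions of Irf4, Klf4, Klf6, Maf, Pparg and Arhgap18.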

How the data were processed

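According to the study's methods and the submitters' processing notes, reads were aligned to mm10 with BWA 0.7.10, peaks were called for each sample with MACS2 2.0.10 under a q-value limit, blacklisted peaks were removed and the rest annotated with HOMER 4.2. SAMtools 0.1.19 is also listed. The deposited peak score was used as a score; the authors' files do not give its scale, the control library or the sequencing depth, and a score rises with depth. The kit that served each library was not given either, so differences in depth or kit and the effect of IL-4 cannot be told apart.

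The reference supplied, GRCm38, is the same assembly, and 0 peaks ended past a chromosome. Coordinates are 1-based with the start as deposited, uncertain by 1 bp. Where a region held several peaks of a sample, the highest score was taken. Position, nearest gene and motif window came from the C/EBPα control peak, or the C/EBPα IL-4 peak for gained regions. Shares carry Wilson and differences Newcombe 95% intervals. The limit for a count of 0 is 3 counts of the total. Regions are not replicates, and no p-value was computed.

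Named regions were the first 12 by the lower of their 2 score percentiles, genes with 2 or more lost regions, the first 8 that lost JUNB, all that kept or gained it, the first 8 promoters and those at listed genes. Of the 14 lists, 1 is counted in the total over lists but not reported on its own here, and not every sequence of the named regions is printed. The lists, the rule and the members were chosen with earlier results of these data known. Scripts were tested on simulated data, with Python 3.11.15, pandas 2.3.3, numpy 2.4.6 and matplotlib 3.10.9, and merging was checked against bedtools 2.31.1.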

Additional observations from a re-analysis of the deposited data

How the results depend on the processing

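The number of lost regions ranged from 297 to 438 under the alternatives that joined or cut peaks differently, matched list lengths, required a score of at least 5 in every list, required direct overlap or left out the sex chromosomes. Cutting each factor's longer list to the length of the shorter moved the share that lost both to 3.09%, the JUNB control share to 3.42% in lost and 13.5% in kept regions, the JUNB loss to 60% in lost (9 of 15) and 45.9% in kept regions and the genes with several lost regions to 22. A score of at least 5 in all lists gave 19.7% of kept regions a JUNB control peak, a JUNB loss of 93.3% in lost and 60.6% in kept regions, and a promoter share of 4.68% in kept regions; 154 of the 370 regions were overlapped by its 297. Requiring control scores of at least 10 left 9 lost regions (0.146%), with 0% JUNB, 0% promoter, a median TSS distance of 79323 bp and 0 genes with several, while kept regions had 10.6% JUNB, a JUNB loss of 34.1% and 3.97% promoters. With promoters defined by 1000 bp around the TSS the kept share was 6.65%. Score-limited kept regions had 12.0% JUNB, a JUNB loss of 64.8% and 9.45% promoters. Within 100000 bp of the TSS, 7 genes had several lost regions. Stricter thresholds leave fewer peaks, and the cause of these shifts was not tested.

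The STAT6-type share of lost regions was 2.97% around the IRF8 peak centre and 1.35% in 100 bp windows, against 7.73% and 4.12% in kept regions. No paired analysis was possible because each antibody and condition had 1 sample, and for the same reason no replicate could be left out. Depth is unknown, so whether a missing IL-4 peak reflects less binding or less signal over background cannot be told apart.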
